A study of Rattus norvegicus with 6 samples.

Results

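The effect of adding 4μ8c to the induction of mutant proinsulin was read from 4 of the 6 arrays of the series, the 2 titled as given doxycycline (Dox) with 4μ8c and the 2 titled as given Dox alone. Each Dox+4μ8c array was set against the Dox array with the same replicate number, and the differences of the 2 experiments were averaged over 12603 genes. The 2 untreated arrays served as the starting point from which both treatments are given. They also entered the fit that gave every standard error and p-value below. All 6 arrays came from INS-1 cells, a β-cell-like line from a rat insulinoma, in which Dox switches on a GFP fusion of insulin 2 that carries the C96Y (Akita) mutation. The cells are 1 clone, they keep their own insulin genes, and every group was grown with G418 and hygromycin. Per the labels, Dox was given at 4 μg/ml and 4μ8c at 5 μM, and all cells were collected after 48 h. Per the methods, 4μ8c was given together with Dox for that time. Arrays of cells given 4μ8c without Dox were not analysed here, so that an effect of 4μ8c on induced cells cannot be told apart from one it has on any INS-1 cell.

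IRE1 is a sensor of misfolded protein in the membrane of the endoplasmic reticulum (ER). When activated, its cytoplasmic endoribonuclease removes a short intron from the Xbp1 mRNA, and the spliced mRNA encodes XBP1s, a transcription factor for genes of protein entry into the ER, folding, glycosylation, ER-associated degradation (ERAD) and vesicle traffic. The same activity can cut other mRNAs at the ER. The other arms of this unfolded protein response (UPR) are the kinase PERK, which acts through ATF4, and ATF6. The compound 4μ8c blocks the endoribonuclease of IRE1. β-cells depend on this system because proinsulin is folded and oxidized in the ER in large amounts.

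The deposited values are log2 values that lie about 0 on every array. In experiment 1 the median of the 3 arrays was 0, within 1e-06, in 100% of probesets, whereas in experiment 2 this held for 0.836%, and how the zero was set there is not known. Levels, detection and signal over background therefore cannot be read, and every value below is a log2 difference. A value given for an array is its difference from the untreated array of the same experiment, experiment 1 first. The difference between Dox+4μ8c and Dox is the mean of the 2 experiments, with its standard error (SE) from limma, and a gene passed the test where its p, adjusted by Benjamini-Hochberg over the 12603 genes, was under 0.05. The usual check of a cell type by its markers is not possible on such values. Ins1, Ins2, Iapp, Pdx1, Nkx6-1, Mafa and Slc2a2 were on the array, but their levels are not known. The array Dox replicate 2 varied more over probesets than the other 5 (SD 0.176 against 0.0502 to 0.117), and the difference between the 5′ and 3′ probesets of its 4 spike-in RNAs moved by a median of -0.50 from untreated, against -0.25 to 0.04 on the other treated arrays. The part of these features in any result was not tested. In experiment 1 the Dox and Dox+4μ8c arrays held exactly the same value for 27.8% of genes (3509), compared with 0.111% (14) in experiment 2. None of the genes that passed the test was among these ties, and the cause of the ties was not tested.

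With 4μ8c, 203 genes were lower than with Dox alone (1.61% of the genes tested) and 22 were higher (0.175%). The median of the lower genes was -0.43, with a range of -0.28 to -1.44, and that of the higher genes was 0.38, with a range of 0.28 to 0.86. All of these genes had the same sign in both experiments, which the choice nearly fixes, since the test favours genes whose 2 experiments agree. The fall was larger in experiment 2 for 169 of the 203. Over all 12603 genes the median difference was -0.0143, and the range from the 5th to the 95th percentile was -0.20 to 0.14. Of the 12603, 3394 were below 0 in both experiments and 2389 above 0 in both. At least 1.5-fold differences were fewer. There were 45 genes lower by this amount (0.357%), of which 42 passed the test, and 5 genes higher (0.0397%), of which Gcg, Bcam and Mafa passed. Fitted to the 4 Dox and Dox+4μ8c arrays alone, with the experiment term, the counts past the test were 143 lower and 14 higher. The counts past the test depend on single arrays. Without Dox replicate 1 they were 580 lower and 325 higher, without Dox replicate 2 they were 142 and 29, and without Dox+4μ8c replicate 1, and likewise without replicate 2, they were 0 and 0 in limma (1032 and 400, or 467 and 128, at an unadjusted p under 0.05), so that none of the differences named below passed there. With the experiment as a random block in place of a fixed term they were 18 and 1, and 40 of the 49 named genes that pass the test with the fixed term did not pass it.

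**Figure D1:**
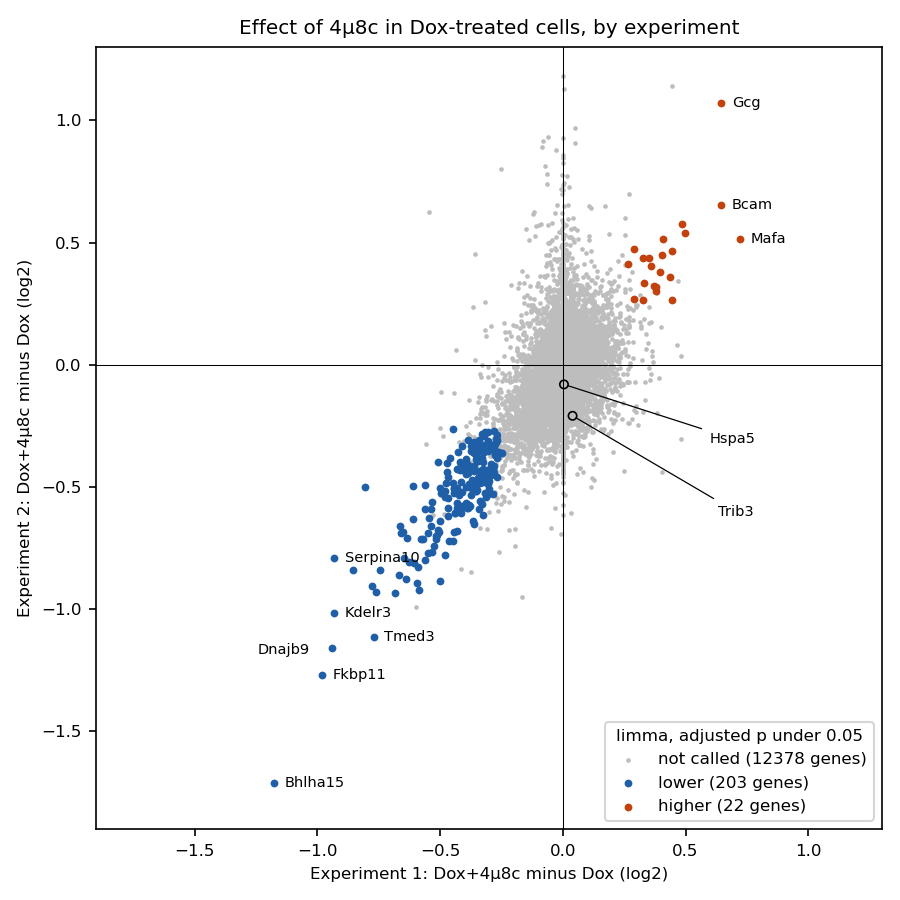
Log2 difference between Dox+4μ8c and Dox for each of 12603 genes, experiment 1 on the horizontal and experiment 2 on the vertical axis. The 203 genes past the test and lower (blue) lie in the lower left, led by Bhlha15, and the 22 past the test and higher (orange) in the upper right. Of the circled genes, Hspa5 lies near 0 on both axes and Trib3 at 0.04 and -0.21.

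The SD of the differences over all genes was 0.0991 in experiment 1 and 0.166 in experiment 2. Of the 2 experiments, the second had the larger differences. In experiment 1 alone 26 genes were at least 1.5-fold lower, 24 of them also in experiment 2, and 100% of them were below 0 in experiment 2, with a median there of -0.84. In experiment 2 alone 78 genes were lower by this amount, 24 of them also in experiment 1, 97.4% were below 0 there, and their median there was -0.51. Of 3 genes at least 1.5-fold higher in experiment 1, 2 were so in experiment 2 and 100% were above 0 there. Of 43 genes at least 1.5-fold higher in experiment 2, 2 were so in experiment 1, 41.9% were above 0 there, and their median there was 0. Their Dox value is that of Dox replicate 2, the array with the largest spread. The other 2 of the 5 genes with a mean difference of 1.5-fold or more above 0 had most of it in experiment 2 and did not pass the test. Cirbp differed by 0.00 and 1.18 and Plppr5 by 0.44 and 1.14.

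The largest fall was that of Bhlha15, which encodes MIST1, a transcription factor that sets the secretory capacity of professional secretory cells. It was at 1.23 and 1.47 on the Dox arrays and at 0.05 and -0.24 on the Dox+4μ8c arrays. The difference was -1.44 (SE 0.12, adjusted p = 0.0129), so that both inhibitor-treated arrays lay near their untreated arrays while both Dox arrays were more than 1 log2 unit above. Fkbp11, a peptidyl-prolyl isomerase of the ER, was at 1.48 and 1.55 with Dox and at 0.50 and 0.28 with Dox+4μ8c, and the difference was -1.13 (SE 0.075, adjusted p = 0.0102). Dnajb9, the BiP co-chaperone ERdj4, was at 1.36 and 1.14 with Dox and at 0.42 and -0.02 with Dox+4μ8c, and the difference was -1.05 (SE 0.099, adjusted p = 0.0129). For both genes the 2 groups were well apart in each experiment, and the Dox+4μ8c array of experiment 2 was the closer one to untreated. Fkbp11 missed the threshold in a fit without the experiment term (adjusted p = 0.0507). Kdelr3, which retrieves escaped chaperones by their KDEL tail, was at 0.99 and 0.97 with Dox and at 0.06 and -0.05 with Dox+4μ8c, and the difference was -0.97 (SE 0.051, adjusted p = 0.0102).

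Tmed3, a p24 cargo receptor of early secretory vesicles, went from 0.83 and 0.96 with Dox to 0.06 and -0.15 with Dox+4μ8c, and Selenom, a thioredoxin-like selenoprotein of the ER, from 0.71 and 0.86 to 0.02 and -0.07. Smim14, a small membrane protein, went from 0.76 and 0.80 to -0.02 and -0.10. In these 3 genes the arrays with inhibitor lay on either side of untreated or just below it. Calu, the calcium-binding protein calumenin, went from 0.77 and 0.68 to 0.13 and -0.20, and Zfp9, a zinc finger protein, from 1.05 and 0.84 to 0.19 and 0.00. In 3 genes at least 1 inhibitor array stayed well above untreated. Oat, ornithine aminotransferase, was at 0.36 and 0.14 with Dox+4μ8c after 1.11 and 0.98 with Dox, Ggct of glutathione turnover at 0.45 and 0.49 after 1.12 and 1.35, and the lipid phosphatase gene Plpp5 at 0.38 and 0.08 after 0.98 and 0.98. Without the experiment term Ggct (adjusted p = 0.119) and Plpp5 (adjusted p = 0.0995) did not pass.

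Of the 15 largest falls, Smim14, Serpina10, Fgg and Edem2 had both inhibitor arrays below untreated, Smim14 by the least. Serpina10, a secreted serpin that inhibits clotting factors, was at 0.56 and 0.46 with Dox and at -0.38 and -0.33 with Dox+4μ8c, and the difference was -0.86 (SE 0.054, adjusted p = 0.0102), and its value with Dox+4μ8c was below untreated past the test (-0.35, adjusted p = 0.0328). Fgg, the fibrinogen γ chain, was at 0.07 and 0.33 with Dox and at -0.51 and -0.59 with Dox+4μ8c, and the difference was -0.75 (SE 0.084, adjusted p = 0.0179). It did not pass without the experiment term (adjusted p = 0.0836). It was not called with Dox against untreated (0.20, adjusted p = 0.257) and was below untreated with Dox+4μ8c (-0.55, adjusted p = 0.0329). Edem2 of ERAD was at 0.56 and 0.63 with Dox and at -0.20 and -0.30 with Dox+4μ8c, where the difference from untreated did not pass (-0.25, adjusted p = 0.0939). The comparisons with untreated cells share arrays with the one between Dox+4μ8c and Dox. In them, limma called 557 genes higher (4.42%) and 253 lower (2.01%) with Dox.

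**Figure D2:**
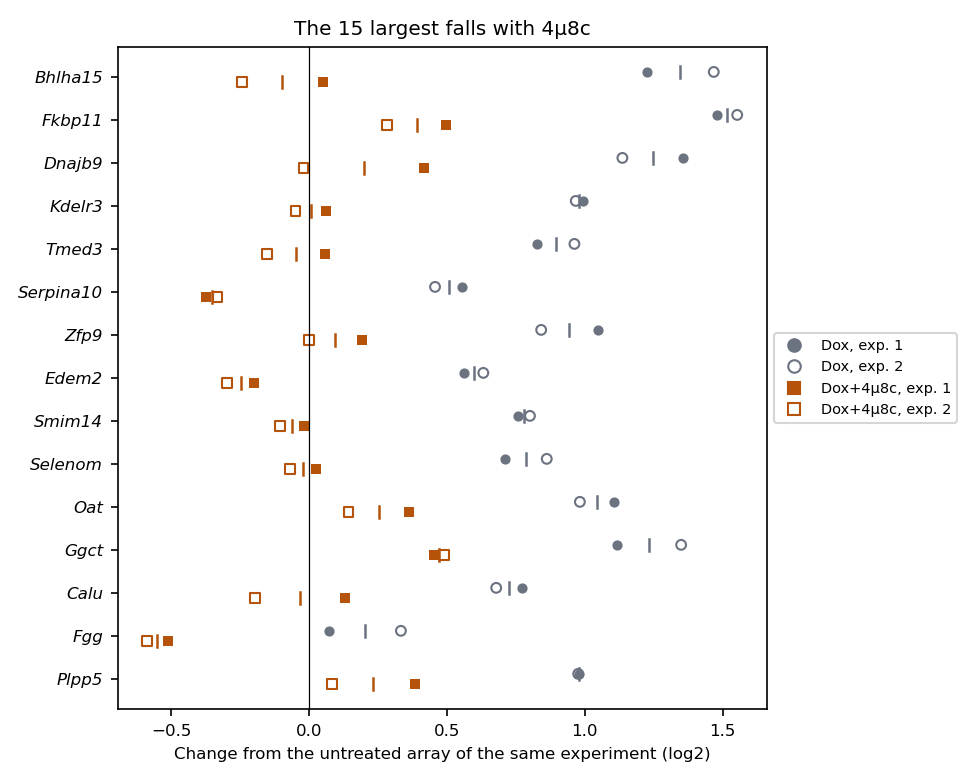
The 15 genes with the largest falls, with the log2 change of each treated array from the untreated array of its own experiment on the horizontal axis (filled, experiment 1; open, experiment 2) and the mean of each group as a short bar. In every gene both Dox points (grey) lie to the right of both Dox+4μ8c points (orange), which the choice of the largest falls nearly fixes. For Serpina10, Edem2, Fgg and, by less, Smim14 both orange points lie below 0.

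Of the 30 gene lists, that of protein entry into the ER had the largest share of lower genes. Of 25 measured genes of translocation and signal peptide cleavage, 11 were lower (44%) and none higher, with a median of -0.33, and 24 of the 25 were below 0 in both experiments. None of the 6 subunits of the signal recognition particle passed, nor did Sec62, Sec63 or Tram1. All of these were still below 0 in both experiments, from Sec62 at -0.06 to Srp54a at -0.27 (adjusted p = 0.0611). Ssr3 at -0.41 (adjusted p = 0.0548) and Spcs2 at -0.33 (adjusted p = 0.0691) did not pass either. Srpra and Srprb, the signal recognition particle receptor, were at -0.51 (SE 0.049, adjusted p = 0.0129) and -0.33, and Sec61a1, Sec61b and Sec61g of the channel at -0.45, -0.49 and -0.36. The probesets of Sec61a1 were apart, at -0.68, -0.57 and -0.11, as were those of Srprb, at -0.47, -0.42 and -0.10. Ssr1, Ssr2 and Ssr4 of the translocon-associated complex TRAP were at -0.72, -0.42 and -0.51, and Sec11a, Sec11c and Spcs3 of the signal peptidase at -0.34, -0.58 and -0.46. Ssr1 was at 0.72 and 0.70 with Dox and at 0.09 and -0.11 with Dox+4μ8c, so that the inhibitor arrays lay about the untreated level.

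N-glycosylation, which attaches a preassembled glycan to proteins as they enter the ER, had 8 lower genes of 35 (22.9%) and none higher, with a median of -0.19. Of the 8, 6 belong to the oligosaccharyltransferase itself: Dad1 at -0.64 (SE 0.053, adjusted p = 0.0129), Ostc at -0.60, Tmem258 at -0.53, Ddost at -0.49, Stt3a at -0.42 and Krtcap2 at -0.37. The remaining genes, Alg1 at -0.40 and Gmppb at -0.52, add or supply mannose. Dad1 was at 0.47 and 0.55 with Dox and at -0.11 and -0.16 with Dox+4μ8c. None of 32 Golgi glycosyltransferases and mannosidases passed the test in either direction, and their median was -0.02. Over all genes tested 1.61% were lower and 0.175% higher, so that this count is near the share of all genes. The smallest p was that of Galnt4, at -0.27 (SE 0.047, adjusted p = 0.0548). Without the experiment term 4 of the 35 were lower.

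Among ER chaperones and co-chaperones 6 of 17 were lower (35.3%), none was higher, and the median was -0.30. All 6 are co-chaperones or small lumenal partners. Beside Dnajb9 they were Creld2 at -0.52 (SE 0.063, adjusted p = 0.021), Dnajc3 at -0.51, Sdf2l1 at -0.48, Dnajc10 at -0.38 and Dnajb11 at -0.36. Sdf2l1 and Dnajc10 did not pass without Dox replicate 2 (adjusted p = 0.0521 and 0.0643). Sdf2l1 stood at 1.90 and 1.83 with Dox and still at 1.51 and 1.26 with Dox+4μ8c, and Creld2 at 1.48 and 1.44 and then at 1.04 and 0.83, so that both kept most of their distance from untreated cells. The abundant chaperones did not pass the test. Hspa5, which encodes BiP, the main ER Hsp70, was at 0.84 and 0.56 with Dox and at 0.85 and 0.48 with Dox+4μ8c, a difference of -0.04 with a 95% interval of -0.25 to 0.18. Hsp90b1 (GRP94) differed by -0.06, calnexin (Canx) by -0.05, calreticulin (Calr) by -0.19 and Hyou1 by -0.33 (adjusted p = 0.0611). In a fit without the experiment term 1 of the 17, Dnajb9, was lower.

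Of 28 disulfide and prolyl isomerases of the ER, 9 were lower (32.1%) and none was higher, with a median of -0.23. After Fkbp11 and Selenom came Pdia2, a protein disulfide isomerase of the pancreas, at -0.69, and Txndc11 at -0.67 (SE 0.05, adjusted p = 0.0129). Erp44 was at -0.44, Ppib at -0.41, Txndc5 at -0.40, Erp29 at -0.39 and P4hb, the archetypal disulfide isomerase PDI, at -0.39. Pdia2 was at 1.07 and 1.17 with Dox and at 0.57 and 0.28 with Dox+4μ8c, and P4hb at 0.48 and 0.40 and then at 0.14 and -0.04. Without the experiment term 4 of the 28 were lower.

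ERAD, which draws misfolded glycoproteins back to the cytosol, had 6 lower genes of 25 (24%) and none higher, with a median of -0.19. The 6 were the mannose-trimming proteins Edem1 and Edem2, the lectins Os9 and Erlec1, Derl2 of the membrane channel complex and the ubiquitin ligase gene Syvn1 (HRD1). Edem1 was at 0.41 and 0.48 with Dox and at -0.10 and -0.19 with Dox+4μ8c, and the difference was -0.59 (SE 0.056, adjusted p = 0.0129). Edem2, Os9 and Erlec1 differed by -0.85, -0.59 and -0.48, and Derl2 and Syvn1 by -0.43 and -0.40. Herpud1, whose product HERP is an ERAD scaffold, was at 1.81 and 1.5 with Dox and at 1.57 and 1.15 with Dox+4μ8c. Its difference of -0.30 (SE 0.099) did not pass the test (adjusted p = 0.304, 95% interval -0.54 to -0.06).

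Vesicle traffic between ER and Golgi held lower genes on both the outward (COPII) and the return (COPI) route. Of 32 cargo receptors and COPI components, 9 were lower (28.1%) and none was higher, with a median of -0.23. Beside Kdelr3 and Tmed3 they were Tmed9 at -0.61, Arfgap3 at -0.61, Surf4 at -0.43, Mcfd2 at -0.39, Tmed10 at -0.36, Copg1 at -0.36 and Golgb1 at -0.35. The cargo receptor gene Lman1, the partner of Mcfd2, was lower by 1.5-fold or more but did not pass (-0.61, SE 0.11, adjusted p = 0.0588). Of 13 COPII coat genes, 2 were lower (15.4%). Sec23b was at 0.69 and 0.68 with Dox and at 0.08 and -0.13 with Dox+4μ8c, and the difference was -0.71 (SE 0.066, adjusted p = 0.0129), and Sec16a differed by -0.31 (adjusted p = 0.0444, and 0.0791 without the experiment term). Without Dox replicate 2, 5 of the 32 and 1 of the 13 were lower. All 13 COPII genes were below 0 in the mean and 12 in both experiments. In ER and Golgi calcium handling 3 of 20 were lower (15%): Calu, the store-operated entry regulator gene Saraf at -0.72 (without the experiment term, adjusted p = 0.0567) and Nucb2, which encodes a calcium-binding protein of the secretory pathway, at -0.47.

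**Figure D3:**
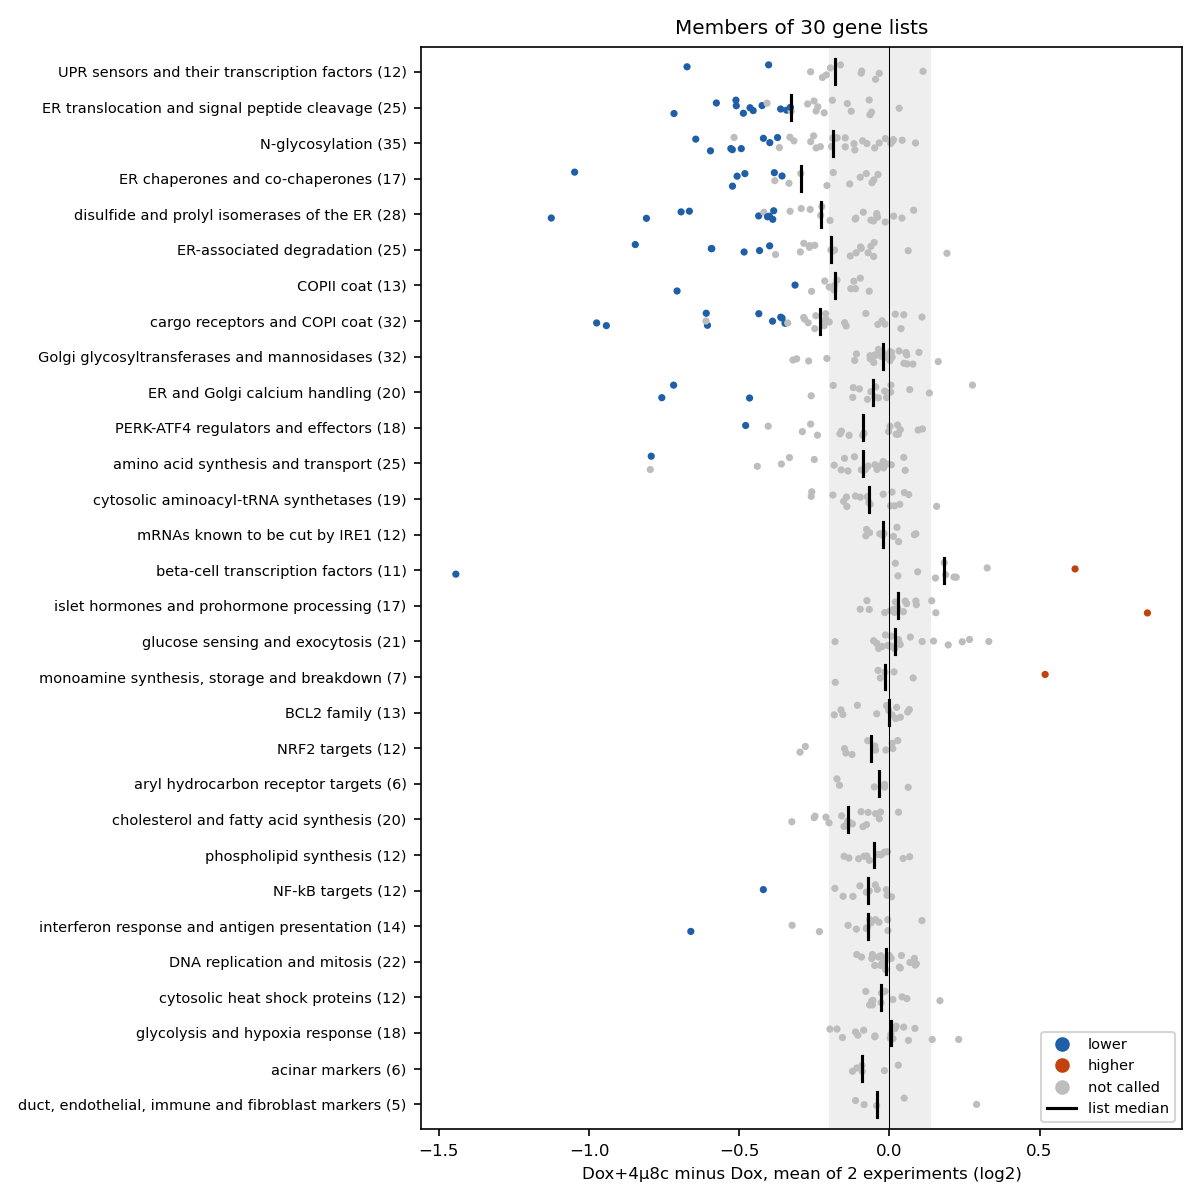
Log2 difference between Dox+4μ8c and Dox (horizontal axis, mean of both experiments) for the measured members of 30 gene lists, with the number of members in brackets, the list median as a black bar and the range from the 5th to the 95th percentile of all genes in grey. Lower genes (blue) are in each of the 8 lists from the UPR sensors (2) to the cargo receptors (9), with 11 in ER translocation and 2 in the COPII coat. They are also in calcium handling (3) and singly in some other lists. The higher genes (orange) are Mafa, Gcg and Maob.

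The sensors of the UPR were read as well. Ern1, which encodes IRE1α, was not among the measured genes. Of 12 sensors and their transcription factors, 2 were lower (16.7%) and none was higher. Eif2ak3, which encodes PERK, was at 0.87 and 0.63 with Dox and at 0.22 and -0.06 with Dox+4μ8c, and the difference was -0.67 (SE 0.0745, adjusted p = 0.0179). Atf6b was at 0.28 and 0.24 and then at -0.05 and -0.24, a difference of -0.40 (adjusted p = 0.0364; 0.0769 without Dox replicate 2), while Atf6 differed by -0.26 and did not pass (adjusted p = 0.402). Xbp1 was at 0.38 and 0.23 with Dox and at 0.52 and 0.31 with Dox+4μ8c, and the difference was 0.11 (SE 0.063, adjusted p = 0.577, 95% interval -0.04 to 0.26). These probes do not tell the spliced Xbp1 mRNA from the unspliced one.

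XBP1 and ATF6 bind short promoter elements, and these letters were searched on both strands from 250 bases before to 50 after the annotated start in the RefSeq promoters of build GRCr8. A promoter was at hand for 176 of the 203 lower genes. The core of the XBP1 sites, ACGTGG, was in 30.1% of them, in 34.2% of the 38 promoters of genes at least 1.5-fold lower, in 11.8% of the 17 promoters of higher genes, in 10.9% of the promoters of 10430 genes tested and in 8.1% of all 27457 promoters. The median GC content was 60.3% for the lower genes and 60.7% for the genes tested. The full UPR element TGACGTGG, which contains the core, was in 5.68% of the lower genes' promoters (10 of 176), in 5.88% of the higher genes' (1 of 17) and in 0.863% of those tested. The ER stress element (ERSE, CCAAT, 9 bases of any kind, CCACG) was in 1.14% (2 of 176) against 0.163% (17 of 10430). ERSE-II (ATTGG, 1 base, CCACG) was in 1.14% (2 of 176) against 0.105% (11 of 10430). An ATF4-type site, TGATGCAA, was in 0% of the lower genes' promoters and in 0.556% of those tested. These are matches of letters, with no test and no binding data. Of the genes with a full element, the upstream windows of 4 are printed 5′ to 3′ on the strand of the gene, with the fixed letters of the element in capitals, to show what the shares count. Kdelr3 (chr7:112959511-112959558, plus strand) holds the UPR element on the opposite strand, Ggct (chr4:85459603-85459653, minus strand) an ERSE-II, Creld2 (chr7:121789219-121789277, plus strand) an ERSE on the opposite strand and Dnajc3 (chr15:102432514-102432572, plus strand) an ERSE.
Kdelr3: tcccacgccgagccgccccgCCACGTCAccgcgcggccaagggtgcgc
Ggct: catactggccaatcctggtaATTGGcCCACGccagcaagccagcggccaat
Creld2: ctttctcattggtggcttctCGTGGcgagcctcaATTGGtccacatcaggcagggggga
Dnajc3: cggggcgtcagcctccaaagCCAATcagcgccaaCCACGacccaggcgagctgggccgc
Counted from the annotated start, the elements begin at -101, -87, -145 and -133. Dnajc3 was at 1.26 and 1.13 with Dox and at 0.83 and 0.54 with Dox+4μ8c.

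The list of PERK-ATF4 regulators and effectors does not hold Eif2ak3, which passed the test and is given above with the sensors. Of 18 regulators and effectors 1 was lower, the stress cytokine gene Gdf15 at -0.48 (SE 0.062, adjusted p = 0.0236), and none was higher. The share was 5.56%, against 1.61% over all genes tested, and the median was -0.09. Trib3, a pseudokinase induced by ATF4 and CHOP, was at 2.95 and 2.81 with Dox and at 2.99 and 2.60 with Dox+4μ8c, a difference of -0.08 (95% interval -0.30 to 0.14). Ddit3, which encodes CHOP, was at 1.29 and 1.12 and then at 1.32 and 1.08, a difference of 0.00 (95% interval -0.16 to 0.16). For Ddit3 the Dox and Dox+4μ8c arrays of each experiment lay close together. Trib3 differed by 0.04 in experiment 1 and by -0.21 in experiment 2. There its 3 probesets were apart, at -0.33, -0.33 and 0.03. Larger values that did not pass were those of Chac1 at -0.29 (adjusted p = 0.0673) and Nupr1 at -0.40 (adjusted p = 0.0837). Atf4 itself differed by -0.16 and Atf5 by 0.10.

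Lists of metabolic targets of ATF4 had 0 or 1 members past the test, against 1.61% lower and 0.175% higher over all genes. In lists this short such counts cannot be told apart from those shares. In amino acid synthesis and transport Oat was the 1 lower gene of 25 (4%), and the cystine transporter gene Slc7a11 differed by -0.80 with an SE of 0.19 (adjusted p = 0.137), at 2.66 and 2.14 with Dox and at 2.07 and 1.14 with Dox+4μ8c. None of 19 cytosolic aminoacyl-tRNA synthetases passed in either direction, their median was -0.07, and the smallest p was that of Tars1, at -0.19 (adjusted p = 0.175). Of 13 genes of the BCL2 family, which governs apoptosis, none passed, with a range of -0.18 to 0.07. This count too is near the share of all genes. Txnip, a glucose-regulated inhibitor of thioredoxin, was at 0.28 and 0.27 with Dox and at 0.18 and 0.20 with Dox+4μ8c, a difference of -0.08 (95% interval -0.19 to 0.03).

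Active IRE1 is known to cut a set of mRNAs besides Xbp1. Of 12 such mRNAs measured here, among them Bloc1s1, Sparc, Scara3, Col6a1 and Pmp22, none passed in either direction. Over all genes tested 1.61% were lower and 0.175% higher, so that this count is near the share of all genes. Their differences between Dox+4μ8c and Dox ran from -0.08 to 0.09, with a median of -0.02, and their median with Dox against untreated was also -0.02. In 3 of the 12 the Dox and Dox+4μ8c values of experiment 1 were identical, so that experiment 2 alone sets their difference.

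Higher genes were fewer and lay outside the ER lists. Of the 22, Mafa, Gcg and Maob belonged to a list. Mafa, which encodes a β-cell transcription factor that drives the insulin gene, was at -0.69 and -0.43 with Dox and at 0.03 and 0.08 with Dox+4μ8c, and the difference was 0.62 (SE 0.071, adjusted p = 0.0189). Both Dox arrays were below untreated and both inhibitor arrays were level with it. Gcg, the glucagon gene, a marker of α-cells, was at -2.03 and -2.41 with Dox and at -1.39 and -1.34 with Dox+4μ8c, and the difference was 0.86 (SE 0.10, adjusted p = 0.021), so that all 4 treated arrays stayed more than 1 log2 unit below untreated. Without the experiment term Gcg did not pass (adjusted p = 0.518).

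Bcam, an adhesion molecule that binds laminin, was at -0.72 and -0.65 with Dox and at -0.08 and 0.01 with Dox+4μ8c, and the difference was 0.65 (SE 0.049, adjusted p = 0.0129). Kcnip1, Maob, Synpo2, Gulp1, Igf1r and Arhgef3 were alike in that each was at -0.36 or lower on both Dox arrays and between -0.17 and 0.04 on both inhibitor arrays. Igf1r, the receptor for insulin-like growth factor 1, was at -0.40 and -0.51 and then at -0.05 and -0.07. Tmem215 and Igfbp1 rose past untreated, from -0.32 and -0.38 to 0.12 and 0.09 and from -0.07 and -0.24 to 0.22 and 0.24. Igfbp1, a binding protein for insulin-like growth factors, did not pass without Dox replicate 2 (adjusted p = 0.0892) or with each array centred on its median (adjusted p = 0.0507).

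Other genes of β-cell identity had differences above 0 that did not pass the test. Of 11 transcription factors, Mafa was higher, Bhlha15 was lower, 8 were above 0 in both experiments and the median was 0.18, against -0.0143 for all genes. Isl1 differed by 0.33 (adjusted p = 0.0817), Nkx2-2 by 0.22, Neurod1 by 0.21, Nkx6-1 by 0.19 and Pdx1 by 0.15. The subunits of the KATP channel, which couples glucose metabolism to insulin release, were at -0.50 and -0.53 (Kcnj11) and at -0.51 and -0.43 (Abcc8) with Dox, and at -0.27 and -0.27 and at -0.15 and -0.26 with Dox+4μ8c. Their differences of 0.24 (adjusted p = 0.0697) and 0.27 (adjusted p = 0.108) did not pass, and none of 21 genes of glucose sensing and exocytosis did. Over all genes tested 1.61% were lower and 0.175% higher. Ins1 was at -0.03 on both Dox arrays and at -0.02 on both inhibitor arrays, a difference of 0.01 (95% interval -0.10 to 0.12). Ins2 was at -0.17 and -0.09 and then at -0.05 and -0.03, a difference of 0.09 (95% interval -0.03 to 0.21), and whether its probes also read the mutant transgene is not known here.

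**Figure D4:**
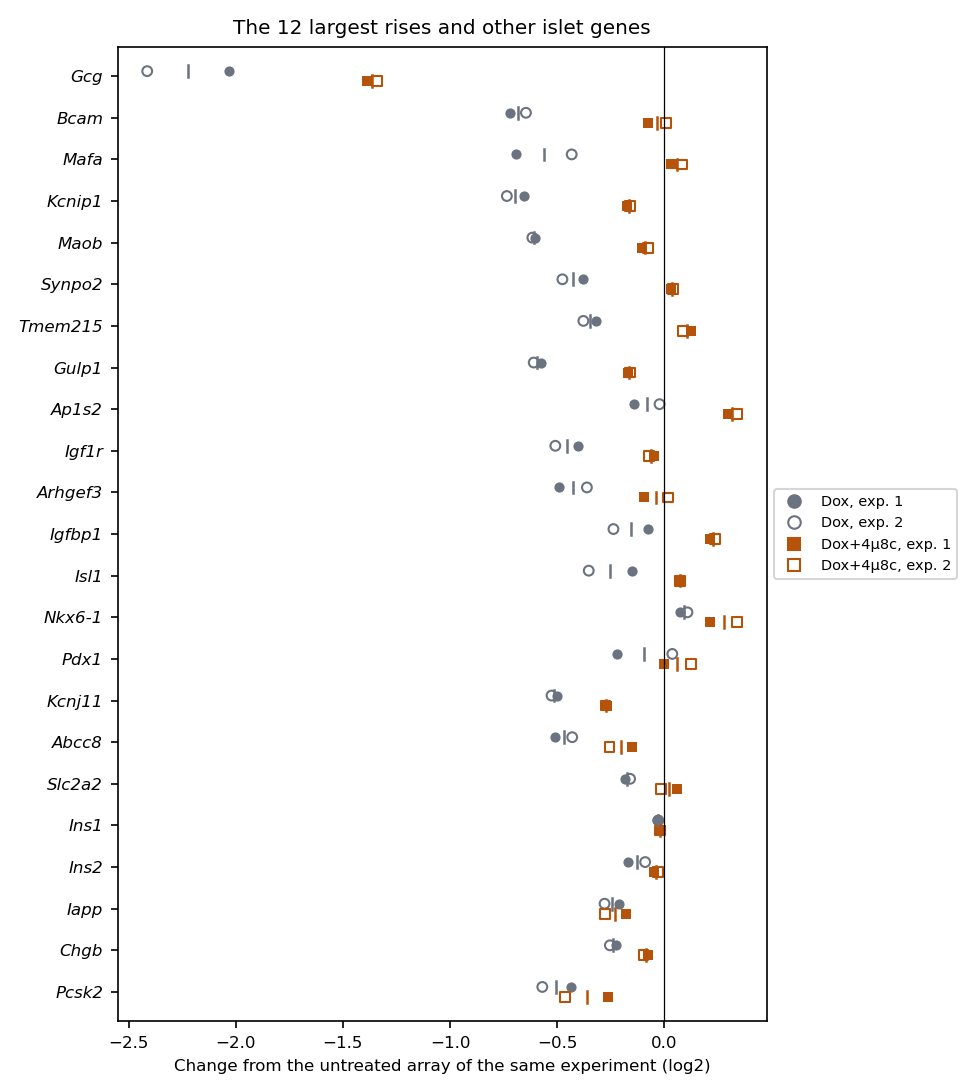
The 12 largest rises and 11 further islet genes, with the log2 change of each treated array from the untreated array of its experiment on the horizontal axis (filled, experiment 1; open, experiment 2) and group means as short bars. In the 12 rises both Dox+4μ8c points (orange) lie to the right of both Dox points (grey), which their choice nearly fixes. Gcg stays below -1.3, and the points of Ins1 and Iapp overlap.

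Some genes differed between Dox+4μ8c and Dox although Dox itself left them within 0.1 of untreated in the mean. There were 10 such genes among the 203 lower and 2 among the 22 higher. They were picked by that limit after their values had been seen, and the choice fixes that their inhibitor arrays lie away from untreated. Postn, the matrix protein periostin, was at -0.05 and -0.09 with Dox and at -0.46 and -0.57 with Dox+4μ8c, and the difference was -0.45 (SE 0.05, adjusted p = 0.0179). Slc16a7, the monocarboxylate transporter MCT2, had a Dox mean near 0 because its arrays stood on opposite sides of untreated, at -0.33 and 0.13, and was at -0.96 and -0.58 with Dox+4μ8c. Edil3, S100a10, Sh3bgrl3, Papss2, Gca, Ier3, Mpp7 and Rbm47 differed by -0.28 to -0.47. Ap1s2, of the clathrin adaptor AP-1, was at -0.14 and -0.02 with Dox and at 0.30 and 0.34 with Dox+4μ8c (without the experiment term, adjusted p = 0.0838), and Lamb1, the laminin β1 chain, at 0.10 and 0.01 and then at 0.37 and 0.43.

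**Figure D5:**
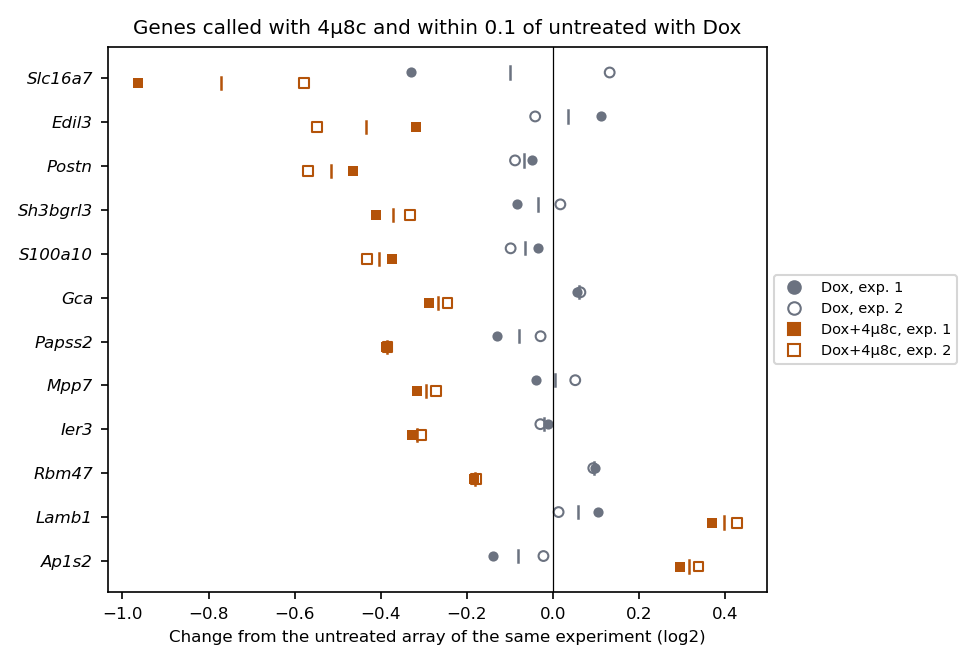
The 12 genes past the test between Dox+4μ8c and Dox whose mean with Dox lay within 0.1 of untreated, with the log2 change of each treated array from the untreated array of its experiment on the horizontal axis (filled, experiment 1; open, experiment 2) and group means as short bars. 10 genes have both Dox+4μ8c points (orange) left of 0, and Lamb1 and Ap1s2 have them near 0.3 to 0.4.

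Further lists of stress and metabolism had 0 or 1 members past the test, against 1.61% lower and 0.175% higher over all genes. A single gene was 8.33% of the NF-kB list and 7.14% of the interferon list. In lists this short such counts cannot be told apart from the shares over all genes. Of 12 NF-kB targets, Icam1, a leukocyte adhesion molecule, was lower (-0.42, adjusted p = 0.041), and of 14 interferon and antigen presentation genes, Isg20, an RNA exonuclease, was lower at 0.71 and 0.67 with Dox and 0.16 and -0.10 with Dox+4μ8c. Icam1 did not pass without the experiment term (adjusted p = 0.0987) or without Dox replicate 2 (adjusted p = 0.0912). None passed among 12 NRF2 targets, where Nqo1 had the smallest p (-0.28, adjusted p = 0.0862), among 6 targets of the aryl hydrocarbon receptor, of which 4 were tied in experiment 1, or among 12 phospholipid synthesis genes. In cholesterol and fatty acid synthesis none of 20 passed, although 18 were below 0 in both experiments and the median was -0.14, with Insig1 at -0.33 (adjusted p = 0.132). None passed among 22 genes of DNA replication and mitosis, 12 cytosolic heat shock proteins and 18 genes of glycolysis and hypoxia. Of the monoamine list, Maob was the 1 of 7 to pass. Of markers of cells other than islet cells, none of 6 acinar and none of 5 duct, endothelial, immune and fibroblast genes passed, and 5 and 3 of these were tied in experiment 1.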

How the data were processed

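Total RNA (200 ng) of 2 untreated, 2 Dox and 2 Dox+4μ8c samples of INS-1 (insulin 2 C96Y-GFP) cells was labelled with a 3′ IVT kit and hybridized to Affymetrix arrays. The methods give Dox at 2 μg/ml, the labels 4 μg/ml. The deposited values are log2 signals made by the authors with RMA (version not given in the sources used here) that lie about 0 on every array. A median of 0 (within 1e-06) over the 3 arrays was found in 100% of probesets for replicate number 1 but in 0.836% for number 2, where the zero point is not known. Background correction and filters on dim probes therefore could not be varied, and only differences were used. Precision is limited by how few arrays there are.

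Of 25476 probesets, 52 controls, 7068 without a gene symbol and 378 with several were left out, and 17978 were averaged to 12603 genes (3839 with several probesets), of which 12592 matched a RefSeq entry. limma 3.58.1 (R 4.3.3) fitted 3 groups and the experiment as a fixed term to all 6 arrays (lmFit, eBayes, 2 residual and 4.25 prior degrees of freedom), two-sided, with Benjamini-Hochberg adjustment over all genes. The experiment term (replicate block) pairs arrays by replicate number, since the methods describe independent experiments. Nothing says that same-numbered samples share cells, and with the zero points unknown the pairing could not be checked on the values. P-values rest on how far the differences among the 3 groups disagree between the 2 experiments. With 2 residual and 4.25 prior degrees of freedom, this spread is largely drawn from all genes. The fit was tested on simulated data. Named genes were the 15 largest falls and 12 largest rises past the test with 1 sign in both experiments, up to 3 members of each of 30 lists by smallest p, Xbp1, Ern1, Ins1, Ins2 and the genes of the quantitative PCR (114 in all, 49 past the test). Other genes named complete a count or an islet or ER group and were chosen after their values were seen. The comparison, lists and alternatives were chosen with earlier results of these data known. No set test was run. Python 3.11.15, pandas 2.3.3, numpy 2.4.6 and matplotlib 3.10.9 made counts, promoter searches and figures.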

Additional observations from a re-analysis of the deposited data

How the results depend on the processing

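The 203 lower and 22 higher genes became 129 and 14 without the replicate block (119 and 14 of the same genes), 143 and 14 with the block on the 4 Dox and Dox+4μ8c arrays, and 18 and 1 with the experiment as a random block. At the level of single probesets they were 0 and 0 (1287 and 435 at an unadjusted p under 0.05, smallest adjusted p 0.0593), and 22 probesets were at least 1.5-fold higher. With 1 array left out the lower genes numbered 0 to 580, the higher 0 to 325, those at least 1.5-fold lower 29 to 74 and those at least 1.5-fold higher 3 to 43. All 203 and 22 remained without Dox replicate 1. In such fits the lone array of a group is assumed to vary like the others. Centring each array on its median, array weights and medians over probesets kept every count within 1.5 times. With the 3509 tied genes left out, an alternative chosen after seeing the data, 259 and 27 were called, the 203 and 22 among them. Of the 49 named genes past the test, 40 lost the call with the random block and 49 at single probesets. The random block left 2 of the 11 lower genes of ER translocation, 2 of the 9 isomerases, 1 each in N-glycosylation, ERAD and cargo receptors and 0 in chaperones, COPII and UPR sensors. Of the 114 named genes, 12 lost and 1 (Galnt4, adjusted p = 0.0415) gained the call without the replicate block, and Igfbp1, Atf6b, Dnajc10, Sec16a and Icam1 lost it with either untreated array left out. No named gene that passed changed sign under any alternative, which the choice by the test nearly fixes. Of those that did not pass, 8 changed sign with an array left out: Ahrr (-0.37 to 0.042), Cd68 (-0.33 to 0.10), Cyp1b1 (-0.041 to 0.17), Ddit3 (-0.083 to 0.077), Hspa5 (-0.15 to 0.075), Krt7 (-0.18 to 0.013), Slc18a2 (-0.020 to 0.18) and Trib3 (-0.24 to 0.075). Ddit3 was also at 0.0045 with arrays centred on their medians. The cause of these changes was not tested. Because the values lie about 0, signal over background cannot be used to say which genes are measured well.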

Other observations

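Several groups of secretory genes outside the 30 lists also held lower genes. They were put together after the differences had been seen, which makes their shares high by choice. Their counts describe what was found and carry no test. Over all genes tested 1.61% were lower and 0.175% higher. Of 8 measured genes of the UFM1 system, which attaches a ubiquitin-like protein at the ER membrane, 5 were lower when 4μ8c was added to Dox: Ufl1, the ligase, at -0.51 (adjusted p = 0.0209), Odr4 at -0.48, Ufc1 at -0.42, Ufsp2 at -0.37 and Ufm1 itself at -0.35. Ufl1 was at 0.66 and 0.50 with Dox and at 0.16 and -0.03 with Dox+4μ8c. Of 14 SNAREs and tethers between ER and Golgi, 6 were lower, among them Rint1 at -0.68 and Bet1 at -0.56. Of 4 zinc transporters of the ER and Golgi, 3 were lower, Slc39a7 at -0.63, Slc30a7 at -0.60 and Slc30a5 at -0.45. Both genes for the synthesis of the sulfate donor PAPS were lower, Papss1 at -0.36 and Papss2 at -0.31, and they differed in Dox, with 0.51 and 0.34 for Papss1 and -0.13 and -0.03 for Papss2.

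Genes best known from the liver were also among the lower ones. Of 10 genes of the vitamin K cycle and of secreted plasma proteins, a group also put together after the differences had been seen, 7 were lower and 1 was higher. Ggcx, the vitamin K-dependent carboxylase of the ER, was at 0.62 and 0.60 with Dox and, with Dox+4μ8c, at 0.09 and -0.16, which differ by -0.65 (SE 0.072, adjusted p = 0.0179), and Vkorc1l1, which recycles vitamin K, was at -0.34. C5, Cpb2 and Cpn1, a complement factor and 2 plasma carboxypeptidases, were at -0.41, -0.39 and -0.36, beside Serpina10 and Fgg. Fgb, the fibrinogen β chain, was at -0.62 and did not pass (adjusted p = 0.0864). F3, tissue factor, was higher at 0.34 (adjusted p = 0.0338). Of 7446 probesets with several gene symbols or none, 11 (0.148%) were at least 1.5-fold lower and 6 (0.0806%) at least 1.5-fold higher, against 0.278% and 0.122% of those with 1 symbol.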
